A study of Mus musculus with 12 samples.

Results

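Krt6a, Krt6b, Krt16, Krt17 and Krt75 are keratin genes of stressed epidermis and of the companion layer of the hair follicle. They were taken from the deposited gene count table by gene symbol, and all 5 of the 5 were found among its 52636 genes. The table holds RNA-seq read counts of full-thickness mouse skin from 12 libraries in 4 groups of 3, all from C57BL/6 mice labelled 3 months old. The groups were wild-type mice without particles (WT), wild-type mice given zinc oxide nanoparticles (WT+ZnO NPs), Cdc42 knockout mice without particles (KO) and Cdc42 knockout mice given the particles (KO+ZnO NPs), all taken on day 14. In the knockout, Cre recombinase driven by the K5 promoter removes a floxed Cdc42 gene, so deletion is limited to keratinocytes that use that promoter and Cdc42 transcript of dermal, fat and immune cells remains in the sample. All mice had their back skin shaved, and the particles were applied to it in saline containing hydroxypropyl methylcellulose. Mice not given particles received that saline alone. The study's methods describe the libraries of a group as biological replicates. The study used the knockout as a model of epidermal barrier dysfunction, and the comparisons ask how genotype and particles, alone and together, were related to transcript levels in skin.

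Keratins form filaments only as pairs of a type I and a type II chain. Krt6a, Krt6b and Krt75 encode type II chains, and Krt16 and Krt17 encode type I chains. In undisturbed skin the KRT6, KRT16 and KRT17 proteins are made mainly in hair follicles, nails and other appendages, and they are switched on in the epidermis between follicles after wounding and in hyperproliferative skin disease. KRT75 marks the companion layer, a single cell layer between the outer and inner root sheaths that is built when a follicle grows in anagen, and KRT17 is also made in the outer root sheath.

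The type II members lie together on chromosome 15 and the type I members on chromosome 11, all on the minus strand, and all are protein coding in GENCODE M21 on GRCm38 (mm10). Krt6a (ENSMUSG00000058354) spans chr15:101689910-101694307, Krt6b (ENSMUSG00000023041) chr15:101676023-101680287 and Krt75 (ENSMUSG00000022986) chr15:101563345-101573904. Krt16 (ENSMUSG00000053797) spans chr11:100246091-100248902 and Krt17 (ENSMUSG00000035557) chr11:100256217-100261029. Krt6a and Krt6b are near-identical copies, whose coding sequences matched at 97.8% of aligned bases, with 1622 of 1659 identical and a longest identical run of 280 bases. Because a read from such a run cannot be given to one gene, the most different stretch of 60 coding bases, in exon 4 of both genes, is shown at chr15:101692484-101692543 for Krt6a and at chr15:101678303-101678362 for Krt6b, 5′ to 3′ on the coding strand, with the 10 differing bases in capitals.
Krt6a: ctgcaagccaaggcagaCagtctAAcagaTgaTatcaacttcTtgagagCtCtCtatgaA
Krt6b: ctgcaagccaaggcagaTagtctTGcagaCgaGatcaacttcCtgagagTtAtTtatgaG
A stretch of exon 1 without any difference lies at chr15:101694156-101694215 in Krt6a and at chr15:101680131-101680190 in Krt6b, and is shown once because reads from it fit both genes.
Krt6a and Krt6b: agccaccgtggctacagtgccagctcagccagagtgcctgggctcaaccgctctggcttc
The type I pair is less alike, with 77.6% identity over coding bases. Its most different stretch, in exon 5, has 25 differing bases in 60, at chr11:100247141-100247200 for Krt16 and chr11:100257782-100257841 for Krt17.
Krt16: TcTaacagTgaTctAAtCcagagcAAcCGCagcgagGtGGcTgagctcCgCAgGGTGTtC
Krt17: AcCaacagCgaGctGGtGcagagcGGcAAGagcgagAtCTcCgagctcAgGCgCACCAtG

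Of all exonic stretches of 50 bases, 49.5% in Krt6a, 50.1% in Krt6b and 37.6% in Krt16 also occurred in another gene of the annotation, against 3.99% in Krt17 and 0% in Krt75. At 100 bases the shares were 34.0%, 30.6%, 24.3%, 0% and 0%, in the same order. Levels of Krt6a, Krt6b and Krt16 are therefore less certain than those of Krt17 and Krt75, since reads of shared stretches may have been left out or given to the wrong gene. Stretches of 100 bases were shared with Krt6b, Krt5, Gm5414 and Gm5478 in Krt6a, and with Krt6a, Gm5414 and Gm5478 in Krt6b. In Krt16 they were shared with Krt14 and Gm11597, not with Krt17. Krt5 and Krt14 serve as denominators below, and the effect of shared reads on those ratios was not tested. Krt6a overlaps the gene models Gm44342 and Gm49428, Krt6b overlaps Gm44383 and Krt75 overlaps Gm44460, and whether counting used strand is not given in the sources used here. Krt6b counts came to between 34.2% and 71.3% of Krt6a counts in the 6 libraries without particles, to between 0.846% and 1.83% in the 3 labelled WT+ZnO NPs, and to 19.1%, 24.1% and 1.31% in the 3 labelled KO+ZnO NPs, so only replicate 3 of the last group lay in the WT+ZnO NPs range.

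Library totals ran from 21076320 to 28867802 counts. Levels below are in CPM, each count relative to the total of its library after scaling by TMM, a method that assumes most genes do not change. Cdc42, the targeted gene, was at 606, 628 and 616 CPM in the libraries labelled WT, at 415, 464 and 439.8 CPM in those labelled KO and at 365, 453 and 314 CPM in those labelled KO+ZnO NPs. In the 3 libraries labelled WT+ZnO NPs it was at 311, 350.1 and 317 CPM, below every library labelled KO, so the transcript goes against that label, and groups are named below by what their libraries are labelled. Y-linked transcripts (Ddx3y, Eif2s3y, Kdm5d and Uty summed) were at 214.8 to 245 CPM in all 3 libraries with the WT+ZnO NPs label and in replicate 1 of KO and of KO+ZnO NPs, and at 0.0452 CPM or less in the other 7, in which Xist was at 413 to 1052 CPM. The methods describe the knockout mice as female, which the Y-linked transcripts of 2 libraries labelled as knockout go against. Sex and particles therefore cannot be told apart between libraries carrying the label WT+ZnO NPs and WT. KO replicate 2 and KO+ZnO NPs replicate 3 stood apart within their groups in hair follicle genes: the summed level of 15 inner root sheath genes was 231 and 486 CPM there, against 4047 to 13403 CPM in the other 4 knockout libraries. Calls of the 5 genes are given with and without these libraries, as are those list counts printed below that move by over 1.5 times. Calls over all genes moved too. Without KO replicate 2, edgeR called 3.0% of all genes higher and 1.75% lower in KO against WT, 0.57% and 1.77% in KO+ZnO NPs against KO, and 0.726% and 0.363% in KO+ZnO NPs against WT+ZnO NPs. Without KO+ZnO NPs replicate 3 the shares were 6.18% and 4.4%, 5.13% and 5.25%, and 5.48% and 2.78%, in the same order, and refitted counts below are to be read beside these.

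Krt6a and Krt6b, the paired copies that partner KRT16 and KRT17, were highest in the libraries labelled KO. Krt6a was at 179.6, 463 and 379 CPM in the libraries labelled WT and at 1539, 1874 and 1093 CPM in those labelled KO. It was at 553, 249 and 137 CPM in libraries carrying the label WT+ZnO NPs and at 749.8, 1391 and 176 CPM in those labelled KO+ZnO NPs. Every library labelled KO was above every library labelled WT, the groups WT and WT+ZnO NPs overlapped, and KO+ZnO NPs replicate 3 lay at the level of the lowest WT library. Krt6b was at 64.5, 330.2 and 236 CPM in the libraries labelled WT and at 526, 1330.0 and 605 CPM in those labelled KO. It was at 4.68, 4.57 and 1.46 CPM in libraries carrying the label WT+ZnO NPs, which stands for 117, 100 and 37 counts, and at 143, 335 and 2.31 CPM in those labelled KO+ZnO NPs. The 3 libraries labelled WT+ZnO NPs were far below all WT libraries, and KO+ZnO NPs replicate 3 was with them rather than with the other 2 libraries of its own group.

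Krt16, a type I partner of the KRT6 chains, followed Krt6b. It was at 183, 387 and 250.4 CPM in the libraries labelled WT and at 612, 1664 and 703 CPM in those labelled KO. It was at 116, 40.3 and 19.4 CPM in libraries carrying the label WT+ZnO NPs and at 226, 625 and 36.2 CPM in those labelled KO+ZnO NPs. Again KO was highest, WT+ZnO NPs lay below WT without overlap, and replicate 3 was the lowest of libraries carrying the label KO+ZnO NPs.

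Krt17 had another order. It was at 517, 325 and 446 CPM in the libraries labelled WT and at 1756, 1862 and 1667 CPM in those labelled WT+ZnO NPs. It was at 2025, 1516 and 1059 CPM in the libraries labelled KO and at 1634, 2246 and 1034 CPM in those labelled KO+ZnO NPs. All 9 libraries of the other 3 groups were above all 3 WT libraries, and those 3 groups overlapped each other. The spread of Krt17 was small in WT+ZnO NPs, with a highest over lowest value of 1.12, against 1.91 in KO and 2.17 in KO+ZnO NPs.

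Krt75, the companion layer gene, was lowest in the libraries labelled WT. It was at 4.74, 3.58 and 2.42 CPM there, 57 to 113 counts, and at 166, 212 and 285 CPM in libraries carrying the label WT+ZnO NPs. It was at 268, 7.19 and 70.7 CPM in the libraries labelled KO and at 194, 243 and 13.7 CPM in those labelled KO+ZnO NPs. Its values in KO spanned 37.3-fold, the widest spread of any member in that group, with replicate 2 close to WT, and the low libraries were the same 2 in which inner root sheath genes were low.

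**Figure D1:**
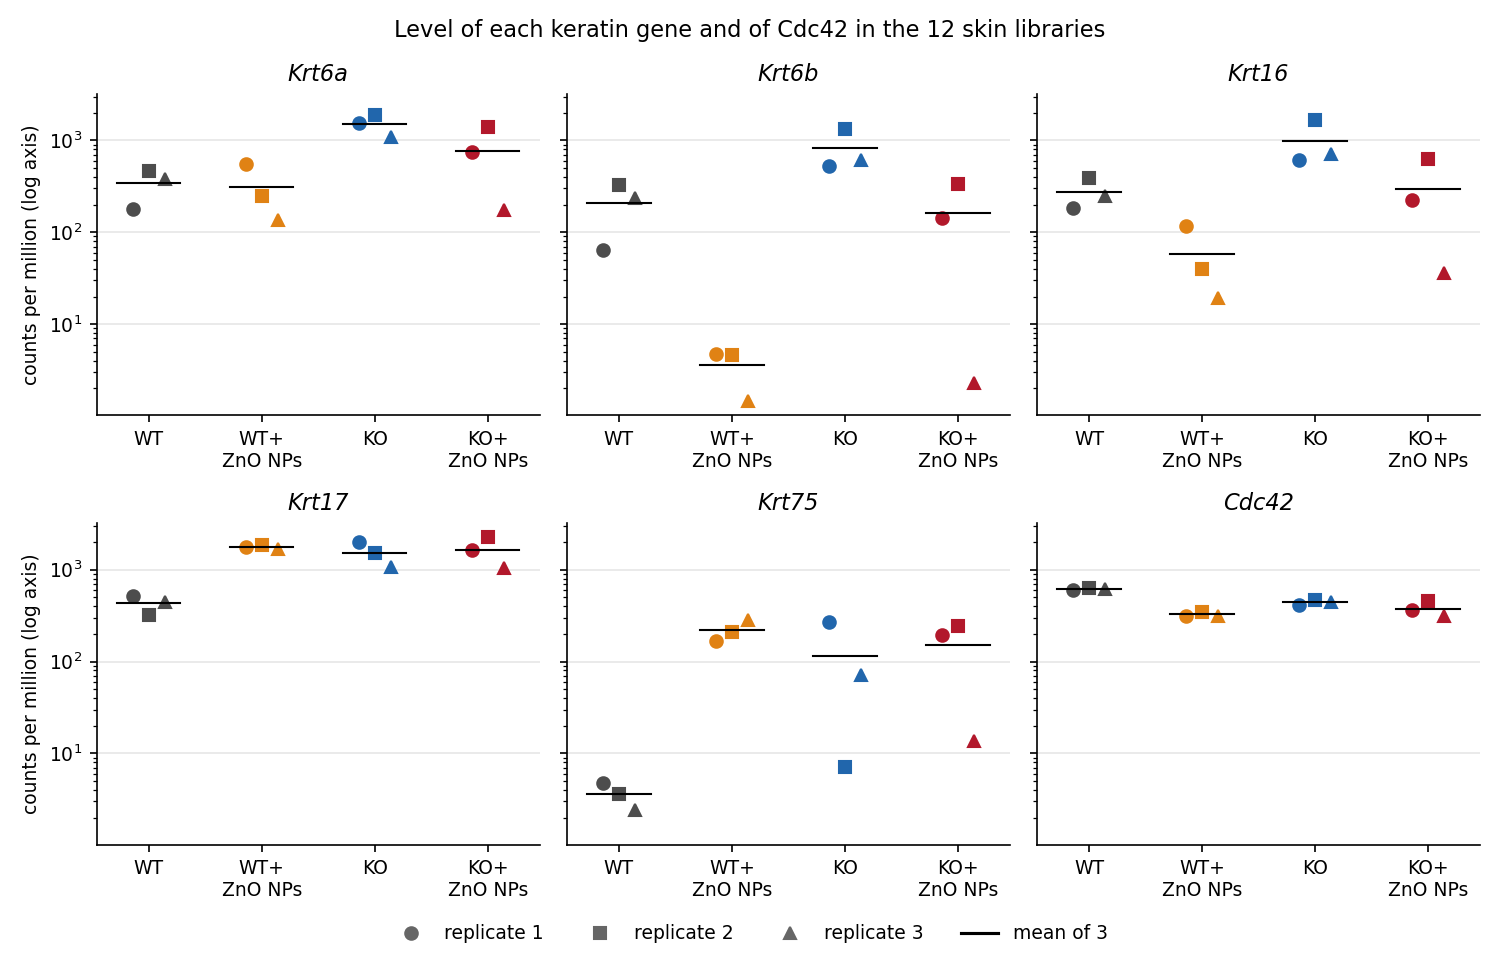
Level of each of the 5 keratin genes and of Cdc42 in CPM (log axis) in the 12 libraries, by group label on the x axis. Points are libraries, marker shape gives the replicate number, and lines are means of 3. Krt6b and Krt16 are lowest in WT+ZnO NPs, where Krt17 and Krt75 are far above WT, and KO replicate 2 is low in Krt75 alone.

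Per kilobase of exon, which allows levels of different genes to be compared, Krt17 was by counts as deposited the most abundant of the 5 in every group mean. How far this order rests on reads of shared stretches of Krt6a, Krt6b and Krt16 was not tested. Krt17 was at 277 ± 62.7 (SD, n = 3) CPM per kilobase in WT, 1136 ± 62.9 in WT+ZnO NPs, 989 ± 312 in KO and 1056 ± 391 in KO+ZnO NPs. Krt75 was the least abundant in WT, KO and KO+ZnO NPs, at 1.10 ± 0.355, 35.3 ± 41.6 and 46.0 ± 37.0 CPM per kilobase. In WT+ZnO NPs the least abundant was Krt6b, at 1.60 ± 0.817 CPM per kilobase, against 67.7 ± 18.4 for Krt75. The share of Krt17 in the summed level per kilobase of the 5 genes was 42.3 ± 17.0% in WT, 83.1 ± 6.11% in WT+ZnO NPs, 38.1 ± 10.4% in KO and 68.7 ± 16.4% in KO+ZnO NPs. The summed level itself was 688 ± 123 CPM per kilobase in WT, 1372 ± 130.0 in WT+ZnO NPs, 2647 ± 769 in KO and 1682 ± 940.3 in KO+ZnO NPs. The libraries labelled WT+ZnO NPs thus held more transcript of these genes than WT, most of it Krt17, and the libraries labelled KO held more of all 5.

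**Figure D2:**
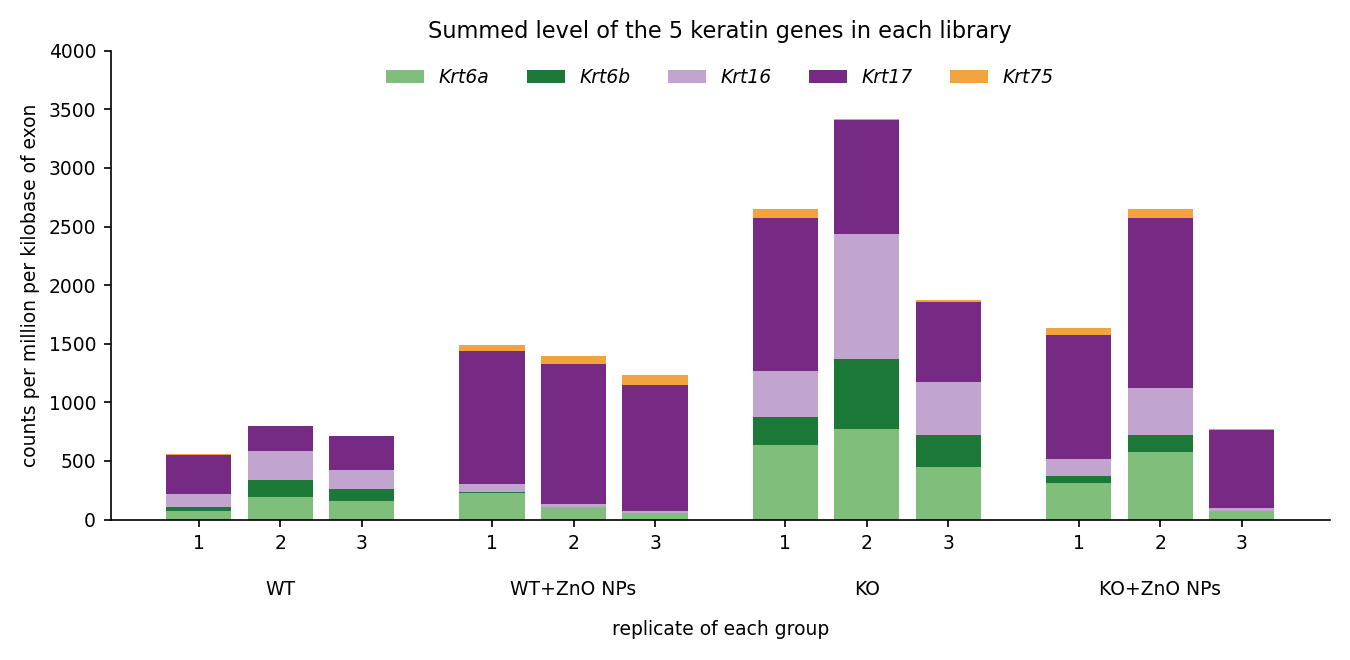
Level of the 5 keratin genes in CPM per kilobase of exon (y axis), stacked for each library, with the replicate number and group label on the x axis. Krt17 makes up 76.1% to 87.2% of the bar in the 3 WT+ZnO NPs libraries and 26.3% to 60.1% in the 3 labelled WT.

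By group mean, the order was KO, KO+ZnO NPs, WT and WT+ZnO NPs for Krt6a and Krt16, and KO, WT, KO+ZnO NPs and WT+ZnO NPs for Krt6b. For Krt17 and Krt75 it was WT+ZnO NPs, KO+ZnO NPs, KO and WT. Among neighbours in these orders, the ranges over libraries did not overlap between KO and WT for Krt6b, Krt17 and Krt75, and between WT and WT+ZnO NPs for Krt16. All other neighbours overlapped. In whole skin, fewer cells of a type and less RNA per cell cannot be told apart.

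Between the libraries labelled KO and WT, which address the effect of losing Cdc42 without particles, all 5 keratin genes were higher in KO, and 2 passed the test. The test was edgeR's quasi-likelihood test over 18822 genes with Benjamini-Hochberg adjustment, called at an adjusted p below 0.05. It called 8.18% of all genes in this comparison, 4.61% higher and 3.58% lower. Krt17 was 3.57-fold higher, a log2 difference of 1.84 ± 0.32 (SE, edgeR adjusted p = 0.00896). Krt75 was 32.1-fold higher, at 5.01 ± 1.26 on the log2 scale (edgeR adjusted p = 0.0371). Krt6a, at a log2 difference of 2.14 ± 0.70 (edgeR adjusted p = 0.0848), Krt16, at 1.86 ± 0.89 (0.217), and Krt6b, at 1.97 ± 1.14 (0.310), did not pass although their groups did not overlap. Groups without overlap were found for 5 of the 5 keratin genes, all higher in KO, beside 38.5% of all genes tested without overlap and 18.6% without overlap and higher. The median log2 difference of the 5 genes was 1.97 and that of all genes tested 0.01.

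These calls rested on few libraries. Without WT replicate 2, the WT library lowest in Krt17, neither gene was called (edgeR adjusted p = 0.0527 for Krt17 and 0.144 for Krt75), and Krt75 was also lost without any other single library of WT, without KO replicate 1 or 3, and without WT+ZnO NPs replicate 3 (edgeR adjusted p between 0.0532 and 0.123). Without KO replicate 1, the KO library highest in Krt75, its log2 difference shrank from 5.01 to 3.44. Without KO replicate 2, Krt75 differed by 5.57 and Krt17 by 1.85 on the log2 scale (edgeR adjusted p = 0.0170 and 0.0217). Without KO+ZnO NPs replicate 3, Krt6a was called as well, at 2.15 (edgeR adjusted p = 0.0319). Among the 7 libraries without Y-linked transcripts, KO exceeded WT by 1.58 for Krt17 and by 3.44 for Krt75 on the log2 scale, and neither was called (edgeR adjusted p = 0.0697 and 0.169). With Y-linked transcripts as a covariate, Krt17 alone was called. With a fit to the 6 libraries of these groups alone, 4 of the 5 were called by edgeR and 5 of the 5 by DESeq2, beside 15.9% and 25.6% of all genes.

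Between libraries carrying the label WT+ZnO NPs and WT, which address the particles in mice labelled wild type, the 5 genes moved apart: 2 rose, 1 fell and 2 did not pass. The test called 43.0% of all genes here, 20.8% higher and 22.1% lower, so the 3 of 5 called stand beside a large background. Krt17 rose 4.10-fold, by 2.04 ± 0.32 on the log2 scale (edgeR adjusted p = 0.000735), and Krt75 rose 61.6-fold, by 5.95 ± 1.31 (edgeR adjusted p = 0.00459). Krt6b was 58.9-fold lower, at -5.88 ± 1.38 on the log2 scale (edgeR adjusted p = 0.00643). Krt16 differed by -2.22 ± 0.90 without overlap of the groups and was not called (edgeR adjusted p = 0.0685), and Krt6a differed by -0.12 ± 0.67 with overlap (edgeR adjusted p = 0.897). Groups did not overlap for 4 of the 5 genes, beside 59.4% of all genes tested. Krt6b counts were 56.5 ± 18.4% (SD, n = 3) of the counts of its near-identical copy Krt6a in WT and 1.25 ± 0.518% in WT+ZnO NPs, without overlap.

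Leaving out WT+ZnO NPs replicate 1, KO+ZnO NPs replicate 2 or KO+ZnO NPs replicate 3 brought Krt16 under the threshold (edgeR adjusted p = 0.0351, 0.0458 and 0.0256), with log2 differences of -3.20, -2.19 and -2.19. With Y-linked transcripts as a covariate, only Krt17 stayed called, at 1.69 (edgeR adjusted p = 0.0296), while Krt6b was at -5.35 (0.0518) and Krt75 at 4.12 (0.0851). Cdc42 itself was 1.89-fold lower in libraries carrying the label WT+ZnO NPs than in WT (edgeR adjusted p = 0.000799).

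Between libraries carrying the label KO+ZnO NPs and KO, which address the particles in the knockout, edgeR called none of the 5, with 0 of 5 below 0.05 unadjusted and 0 of 5 called by DESeq2 on all 12 libraries or on these groups. It called 14.7% of all genes, 6.57% higher and 8.09% lower. The log2 differences were -0.96 ± 0.68 for Krt6a, -2.36 ± 1.16 for Krt6b and -1.75 ± 0.89 for Krt16, and they were 0.10 ± 0.31 for Krt17 and 0.38 ± 1.04 for Krt75 (SE, edgeR adjusted p between 0.185 and 0.858). Groups did not overlap for 1 of the 5, Krt6b, lower in every library labelled KO+ZnO NPs, beside 34.7% of all genes. Without KO+ZnO NPs replicate 3 the differences of Krt6b and Krt16 shrank to -1.76 and -1.20 on the log2 scale, and without KO replicate 2 that of Krt75 changed sign, to -0.15.

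Between libraries carrying the label KO+ZnO NPs and WT+ZnO NPs, which address the genotype under particles, edgeR again called none of the 5, with 2 of 5 below 0.05 unadjusted. It called 3.28% of all genes, 2.13% higher and 1.16% lower. Krt6b differed by 5.49 ± 1.36 on the log2 scale (edgeR adjusted p = 0.0521) and was called by DESeq2, which called 1 of 5 on all 12 libraries, beside 13% of all genes, and on the groups compared, beside 5.06%, and by edgeR without a filter on low counts (adjusted p = 0.0480). Krt16 differed by 2.34 ± 0.91 (edgeR adjusted p = 0.146), Krt6a by 1.30 ± 0.68 (0.264), Krt17 by -0.11 ± 0.31 (0.867) and Krt75 by -0.56 ± 1.05 (0.777). No group pair was without overlap for any of the 5, beside 23.7% of all genes, and KO+ZnO NPs replicate 3 lay within the WT+ZnO NPs range in Krt6a, Krt6b and Krt16. Without that library, 2 of the 5 were called, Krt6b at 6.06 and Krt16 at 2.85 (edgeR adjusted p = 0.00986 and 0.0440), and the share of all genes called rose from 3.28% to 8.26%.

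The interaction of genotype with particles, the change under particles in libraries labelled KO minus that in libraries labelled WT, was called for 1 of the 5 genes, beside 8.68% of all genes, 5.08% higher and 3.59% lower. For Krt17 it was -1.94 ± 0.44 on the log2 scale (edgeR adjusted p = 0.0275): Krt17 rose by 2.04 under particles in the libraries labelled WT and differed by 0.10 in those labelled KO, where it was already high. The call was lost without WT replicate 2 or 3, WT+ZnO NPs replicate 3 or KO replicate 1 (edgeR adjusted p = 0.0783, 0.0629, 0.0608 and 0.0626) and with Y-linked transcripts as a covariate, at -1.56 (0.202). For Krt75 the interaction was -5.56 ± 1.60 (edgeR adjusted p = 0.0551), called at -6.14 without KO replicate 2 (0.0256), and for Krt6b it was 3.52 ± 1.63 (0.191), called at 4.08 without KO+ZnO NPs replicate 3 (0.0348). The comparisons share groups of libraries, so their values are set side by side here and are not independent.

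**Figure D3:**
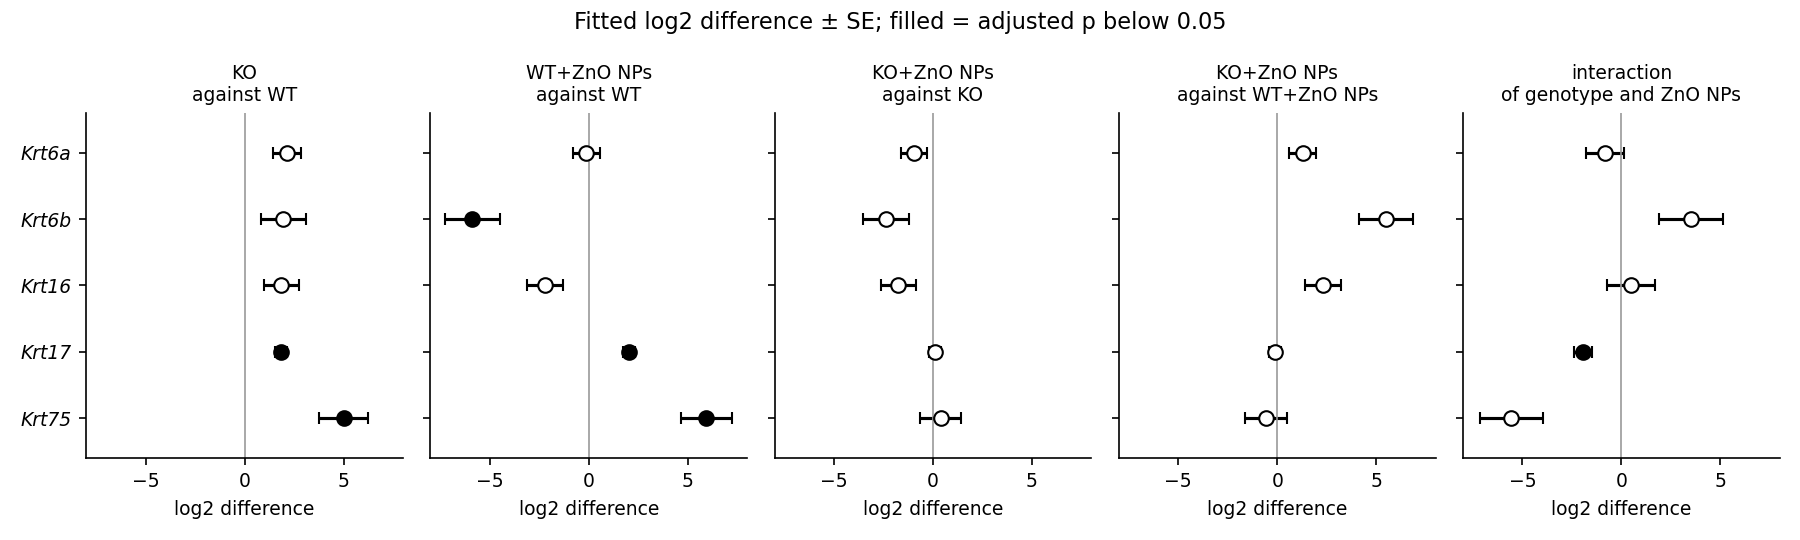
Fitted log2 difference (x axis) of each keratin gene in 5 comparisons, with bars of 1 SE and filled points for an edgeR adjusted p below 0.05. All 5 points lie right of 0 for KO against WT, whereas Krt6b lies at -5.88 and Krt75 at 5.95 for WT+ZnO NPs against WT.

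Relative to Krt5 and Krt14, the keratin pair of basal keratinocytes, the summed level of the 5 genes was highest in KO, whereas Krt17 and Krt75 taken singly had their highest means in WT+ZnO NPs. The log2 of their summed CPM over the summed Krt5 and Krt14 CPM was -2.27, -1.30 and -1.98 in the libraries labelled WT and -0.74, -0.62 and -0.76 in those labelled KO. It was -1.78, -1.17 and -1.21 in those labelled WT+ZnO NPs and -1.56, -1.13 and -2.85 in those labelled KO+ZnO NPs. KO was above WT and above KO+ZnO NPs without overlap, by 1.14 in both cases, with p = 0.1 in a two-sided exact permutation test, the smallest that 3 against 3 libraries can give. WT+ZnO NPs was above WT by 0.46 (exact permutation p = 0.2) and above KO+ZnO NPs by a similar amount, the difference of KO+ZnO NPs minus WT+ZnO NPs being -0.46 (exact permutation p = 0.7). Without KO+ZnO NPs replicate 3 the last became 0.04 and that of KO+ZnO NPs minus KO became -0.64, and WT+ZnO NPs exceeded WT by 0.0054 with Krt5 alone below the line and by 0.83 with Krt14 alone. Taken singly over Krt5 and Krt14, KO lay above WT without overlap for Krt6a and Krt17, by 1.39 and 0.99 (exact permutation p = 0.1 for each), and with overlap for Krt6b, Krt16 and Krt75, by 1.31, 0.95 and 3.07 (exact permutation p = 0.2, 0.2 and 0.3). Between KO+ZnO NPs and KO the values were lower without overlap for Krt6a, Krt6b and Krt16, at -1.63, -4.23 and -2.64 (exact permutation p = 0.1 for each), and overlapped for Krt17 and Krt75, at -0.19 and 0.49 (exact permutation p = 0.7 for each). Scaled in this way, Krt75 and Krt17 were still without overlap above WT in WT+ZnO NPs, by 5.49 and 1.59 on the log2 scale, and Krt6b and Krt16 without overlap below it, at -6.24 and -3.01 (exact permutation p = 0.1 for each). Krt5 itself was 1.93-fold higher in WT+ZnO NPs than in WT (edgeR adjusted p = 0.0181), and Krt14 differed by 0.16 on the log2 scale (edgeR adjusted p = 0.696).

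Since filaments need a type II and a type I chain, the balance of the 2 types was also computed, as the log2 of the summed Krt6a, Krt6b and Krt75 level per kilobase over that of Krt16 and Krt17. Its mean was -1.10 ± 0.89 (SD, n = 3) in WT, -2.62 ± 0.45 in WT+ZnO NPs, -0.67 ± 0.14 in KO and -1.94 ± 1.05 in KO+ZnO NPs. By counts as deposited, type I transcript exceeded type II in all 12 libraries, by the least in KO on the group mean, although WT replicate 2, at -0.43, was nearer 0 than any KO library. KO+ZnO NPs lay below KO without overlap, at a difference of -1.27 (exact permutation p = 0.1), and the other 3 comparisons overlapped.

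Across the 12 libraries, Krt6b and Krt16 were the closest pair of the 5. The following Pearson correlations of log2(CPM + 1) are descriptions over libraries that share group, depth and tissue composition. Krt6b and Krt16 correlated at 0.96, Krt6a and Krt16 at 0.88 and Krt6a and Krt6b at 0.80, and with the group means taken out the values were 0.90, 0.96 and 0.90. Krt17 and Krt75 correlated at 0.86, and at 0.57 with group means taken out. Krt75 correlated with Krt6b at -0.29 and with Krt16 at -0.24, and Krt17 with Krt6b at -0.19. With group means taken out these last 3 values were 0.42, 0.22 and 0.50, so the negative sign held between groups and not within them.

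Genes outside the 5 that were most like each one were sought among 11264 genes averaging 10 CPM or more. For Krt6b they were Pld1 (0.98), Klf7 (0.98) and Sprr1b (0.97), the last encoding a cornified envelope precursor, and for Krt16 they were Ldlrad4 (0.96), Spp1 (0.95) and Tprg (0.95). For Krt6a they were Gadl1 (0.93), Sh3pxd2b (0.93) and Crabp1 (0.92). For Krt17 they were Plcg1 (0.98), Btbd11 (0.98) and Ptprf (0.97), and for Krt75 they were Ggt1 (0.98), Lrrc75b (0.98) and S100a3 (0.97), over 12 libraries in each case. Ptprf and Plcg1 for Krt17 and Sprr1b for Krt6b were also among the 3 most alike after group means were taken out, whereas none of the 3 genes named for Krt6a, Krt16 or Krt75 was. Sprr1b was at 58.7, 117 and 68.7 CPM in the libraries labelled WT, 3.16, 4.98 and 1.11 CPM in WT+ZnO NPs, 86.9, 177 and 66.7 CPM in KO and 43.7, 104 and 2.74 CPM in KO+ZnO NPs, low in the same 4 libraries as Krt6b.

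Krt75 moved with genes of the inner root sheath, the follicle layer next to the companion layer. It correlated at 0.96 with Krt25, 0.96 with Krt71 and 0.95 with Krt27, and at 0.94, 0.93 and 0.96 with group means taken out. Krt71, a type II keratin of the inner root sheath, was at 0.42, 0 and 0.17 CPM in the libraries labelled WT, 220.3, 1120.3 and 1808 CPM in WT+ZnO NPs, 3557, 0.201 and 1022 CPM in KO and 2541, 2014 and 61.8 CPM in KO+ZnO NPs. The 7 libraries highest in Krt71 were also the 7 highest in Krt75. In KO replicate 2, where Krt71 and Krt75 were near WT, Krt6b and Krt16 had their highest values of all 12 libraries, and in KO+ZnO NPs replicate 3 all 4 were below the other 2 libraries of that group.

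**Figure D4:**
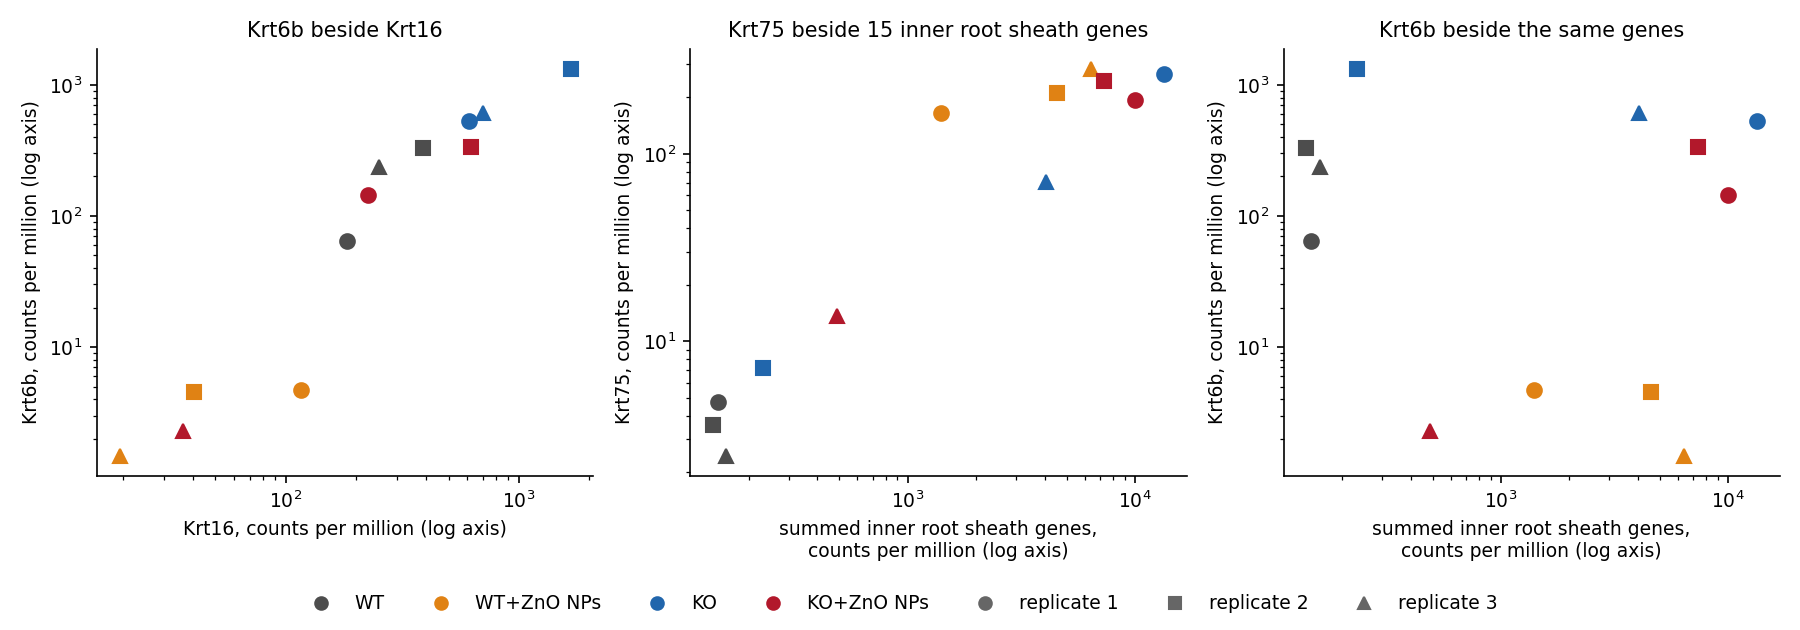
Each point is 1 of the 12 libraries, with colour for the group label, marker shape for the replicate number and CPM on log axes. Krt6b rises with Krt16 (left) and Krt75 with the summed level of 15 inner root sheath genes (middle), while Krt6b is plotted against the latter on the right, where KO replicate 2 is highest in Krt6b at a summed inner root sheath level of 231.

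Lists of hair follicle genes were compared next, beside 4.61% of all genes called higher in KO than in WT and 20.8% in WT+ZnO NPs than in WT, and the inner root sheath list had the most calls of these lists in both comparisons. Of 15 inner root sheath genes, 9 were higher and 0 lower in KO than in WT, and 15 were higher in WT+ZnO NPs than in WT. Between KO+ZnO NPs and either KO or WT+ZnO NPs edgeR called 0, with 0 below 0.05 unadjusted in both. The interaction was lower for 5, beside 3.59% of all genes. Without KO replicate 2, 13 were higher in KO than in WT and 10 had a lower interaction, beside 3.12% of all genes for the interaction. Without KO+ZnO NPs replicate 3, 2 had a lower interaction, beside 3.25% of all genes. Their summed level was 139 to 159 CPM in WT, 1403 to 6415 in WT+ZnO NPs, 231 to 13403 in KO and 486 to 9996 in KO+ZnO NPs, and 2 of the 15 were at 0 in every WT library. Of 15 hair shaft keratin genes, 1 was higher in KO than in WT, a share near that of all genes, and 10 in WT+ZnO NPs than in WT, with 4 of the 15 at 0 in every WT library and a summed level of 3.97 to 5.82 CPM in WT, 581 to 1885 in WT+ZnO NPs, 3.05 to 1998 in KO and 40.9 to 1561 in KO+ZnO NPs. Of 14 tested regulators of anagen, 4 were higher in KO and 13 in WT+ZnO NPs, each against WT, among them Shh, a signal that drives follicle growth, at a mean of 0.209 CPM in WT, 36.9 in WT+ZnO NPs, 5.26 in KO and 12.7 in KO+ZnO NPs. Of 14 outer root sheath and bulge genes, 2 were higher and 1 lower in KO than in WT, beside 3.58% of all genes lower. In WT+ZnO NPs against WT 8 were higher and 2 lower, beside 22.1% of all genes lower. The called genes included Lgr5, a marker of cycling follicle stem cells, at 5.16 to 9.78 CPM in WT and 56.9 to 67.3 CPM in WT+ZnO NPs. Lower in the same list were Cd34, a bulge marker also made by other skin cells, at -1.23 ± 0.28 in KO and -1.88 ± 0.28 in WT+ZnO NPs (edgeR adjusted p = 0.0252 and 0.000535), and Nfatc1, a bulge transcription factor, at -0.78 ± 0.20 in WT+ZnO NPs (0.00975), each against WT. Cd34 was not called between KO and WT without KO replicate 2. Without KO replicate 2, 7 hair shaft keratin genes and 7 anagen regulators were higher in KO than in WT, and without KO+ZnO NPs replicate 3 these counts were 5 and 6. The part of follicle growth in the levels of Krt75 and Krt17 was not tested.

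Wound-edge and activated keratinocyte genes, the genes among which Krt6a, Krt6b and Krt16 are usually placed, were called in both directions. Of 33, 6 were higher in KO than in WT and 0 lower, beside 4.61% and 3.58% of all genes, with a median log2 difference of 0.50 beside 0.01 for all genes. Gjb2, encoding connexin 26, rose by 3.59 ± 0.64 in KO (edgeR adjusted p = 0.00976) and by 3.98 ± 0.65 in WT+ZnO NPs (0.000878), each against WT, and Stfa3, a stefin, rose by 2.88 ± 0.76 in KO (0.0433). In WT+ZnO NPs against WT, 4 of 33 were higher and 17 lower, beside 20.8% and 22.1% of all genes, with a median of -1.72 beside 0.06. The 3 largest falls among genes above 1 CPM on average were of Sprr2d, a cornified envelope precursor, at -6.13 ± 1.10, of Serpinb3a, a serine protease inhibitor gene, at -6.00 ± 1.51, and of Il1f6, encoding the cytokine IL-36 alpha, at -5.08 ± 1.28 (edgeR adjusted p = 0.00152, 0.00901 and 0.00940). Between KO+ZnO NPs and KO, 0 were higher and 7 lower, Sprr2d among them at -4.16 ± 0.91 (edgeR adjusted p = 0.0175), beside 8.09% of all genes lower, and between KO+ZnO NPs and WT+ZnO NPs, 5 were higher and 0 lower, beside 2.13% of all genes higher. These counts became 0 called by edgeR, with 8 below 0.05 unadjusted, and 2 higher without KO replicate 2, and 4 lower and 9 higher without KO+ZnO NPs replicate 3.

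Other keratins of the epidermis between follicles were called in both directions in WT+ZnO NPs. Of 10 such genes, 3 were higher and 5 lower than in WT, beside 20.8% of all genes higher and 22.1% lower. Between KO and WT edgeR called 0 of the 10, with 4 below 0.05 unadjusted, and it called 1, Krt1, higher in KO without KO+ZnO NPs replicate 3. Krt10, made by differentiating keratinocytes above the basal layer, was at 3101, 1838 and 2229 CPM in WT and at 532, 486 and 428 CPM in WT+ZnO NPs, a difference of -2.31 ± 0.50 on the log2 scale (edgeR adjusted p = 0.00436). Krt77 and Krt80 were lower as well, at -2.53 ± 0.60 and -2.28 ± 0.44 (edgeR adjusted p = 0.00680 and 0.00218), whereas Krt2, a keratin of the upper layers, was higher, at 3.92 ± 0.98 with a mean of 0.232 CPM in WT and 3.54 CPM in WT+ZnO NPs (0.00894), as was Krt15, a basal and bulge keratin, at 1.62 ± 0.60 (0.0483). Krt1, the usual partner of Krt10, was at 306, 324 and 236 CPM in WT+ZnO NPs and at 2639, 2420.1 and 585 CPM in KO+ZnO NPs, a difference of 2.71 ± 0.54 (edgeR adjusted p = 0.0362). Krt1 correlated with Krt6b at 0.91 and with Krt75 at -0.23 over the 12 libraries. Of 7 tested keratins close in sequence to the 5 genes, Krt5 alone was called in any of these comparisons in the fit to 12 libraries, in WT+ZnO NPs against WT. Without KO+ZnO NPs replicate 3, edgeR also called Krt4, named here with its calls known, higher in KO than in WT, lower in KO+ZnO NPs than in KO and with a lower interaction.

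Of 24 genes known to act on stress keratin promoters or upstream of them, 1 was higher in KO than in WT, Trp63, the p63 factor of basal keratinocytes, which rose by 1.17 ± 0.27 (edgeR adjusted p = 0.0268). The count was 2 higher without KO replicate 2, and 4 higher and 1 lower without KO+ZnO NPs replicate 3, beside 8.18% of all genes in the fit to 12 libraries. In WT+ZnO NPs against WT, 12 were higher and 3 lower, beside 43.0% of all genes, with Nfe2l2, which encodes NRF2, among the latter at -0.43 ± 0.15 (edgeR adjusted p = 0.0420). Fos, an AP-1 subunit, was at 95.1, 65.2 and 38.2 CPM in WT, 1312, 2051 and 480.4 CPM in WT+ZnO NPs, 280.2, 40.6 and 86.2 CPM in KO and 42.0, 132 and 17.9 CPM in KO+ZnO NPs. It rose by 4.27 ± 0.94 in WT+ZnO NPs (edgeR adjusted p = 0.00454), and its interaction was -5.36 ± 1.24 (0.0284). Gli1, a target and effector of hedgehog signalling, rose by 3.44 ± 0.52 in WT+ZnO NPs (edgeR adjusted p = 0.000543). Between KO+ZnO NPs and KO, 1 regulator was higher, Cebpb, by 0.98 ± 0.26 (edgeR adjusted p = 0.0336), beside 6.57% of all genes higher. Between KO+ZnO NPs and WT+ZnO NPs, 2 were lower, Fos and Fosb, beside 1.16% of all genes lower. Cebpb was not called when either KO replicate 2 or KO+ZnO NPs replicate 3 was left out: edgeR called 0 regulators between KO+ZnO NPs and KO without the former, with 4 below 0.05 unadjusted, and 2 higher without the latter, Trp63 and Yap1. Of Fos and Fosb, 1 was called between KO+ZnO NPs and WT+ZnO NPs in each of these fits.

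Of 12 genes of the EGF receptor family and its ligands, which induce Krt6 and Krt16 in cultured keratinocytes, 1 was higher in KO than in WT, Erbb3, by 0.75 ± 0.19 (edgeR adjusted p = 0.0396). That share was near the 8.18% of all genes called. In this comparison edgeR called 0 of 12 without KO replicate 2, with 5 below 0.05 unadjusted, and 3 without KO+ZnO NPs replicate 3. In WT+ZnO NPs against WT, 3 receptors were higher and 2 ligands lower, a share near the 43.0% of all genes called. Egfr, Erbb2 and Erbb3 rose by 1.04 ± 0.24, 0.82 ± 0.15 and 0.66 ± 0.19 (edgeR adjusted p = 0.00605, 0.00202 and 0.0177). Ereg, encoding epiregulin, was at 62.5 ± 33.2 CPM (SD, n = 3) in WT and 7.09 ± 4.15 CPM in WT+ZnO NPs, and Btc, encoding betacellulin, was at 13.1 ± 0.939 CPM in WT and 1.61 ± 0.210 CPM in WT+ZnO NPs, differences of -3.14 ± 0.77 and -3.02 ± 0.51 (edgeR adjusted p = 0.00788 and 0.00101). Of 12 NRF2 targets, 2 were higher and 5 lower in WT+ZnO NPs than in WT, beside 20.8% and 22.1% of all genes, the largest fall being that of Hmox1, heme oxygenase, at -3.53 ± 0.50 (edgeR adjusted p = 0.000357). In KO against WT 1 of the 12 was higher, a share near the 8.18% of all genes called. It was Slc7a11, a cystine transporter gene, by 2.39 ± 0.52 (edgeR adjusted p = 0.0214), which was not called without KO replicate 2.

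Of 16 genes of desmosomes, the junctions that anchor keratin filaments, 6 were higher in KO than in WT and 0 lower, with a median log2 difference of 0.91 beside 0.01 for all genes, among them Dsg3 at 1.38 ± 0.27, Dsg2 at 1.30 ± 0.23 and Pkp1 at 1.23 ± 0.33 (edgeR adjusted p = 0.0140, 0.00961 and 0.0484). The count of 6, beside 4.61% of all genes higher, became 2 without KO replicate 2, beside 3.0%, and 9 without KO+ZnO NPs replicate 3, beside 6.18%. In WT+ZnO NPs against WT, 3 were higher and 2 lower, beside 20.8% of all genes higher and 22.1% lower, and 1 was lower without KO replicate 2. Dsc1, of the upper epidermal layers, was lower at -3.19 ± 0.69 (edgeR adjusted p = 0.00419). Of 14 genes for proteins that bind or modify keratins, 1 was higher in KO than in WT and 5 were higher and 1 lower in WT+ZnO NPs than in WT, shares near the 8.18% and 43.0% of all genes, with Tgm3, a transglutaminase of hair and epidermis, higher in the latter by 2.33 ± 0.69 (edgeR adjusted p = 0.0197). Leaving out KO+ZnO NPs replicate 3 raised the count for KO against WT to 2 of 14. Of 14 proliferation genes, 0 were called by edgeR between KO and WT and 1 was below 0.05 unadjusted, 12 were higher in WT+ZnO NPs than in WT and 7 in KO+ZnO NPs than in KO, beside 20.8% and 6.57% of all genes. The last count was 0 by edgeR without KO replicate 2, with 13 below 0.05 unadjusted, and 1 without KO+ZnO NPs replicate 3. Mki67, made in dividing cells, was at 73.4 to 156 CPM in WT, 259 to 548 in WT+ZnO NPs, 83.3 to 162 in KO and 257 to 317 in KO+ZnO NPs, and its correlation with Krt6b was -0.69 over the 12 libraries and -0.02 with group means taken out.

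Of 16 tested immune cell markers, 2 were higher in KO than in WT, 11 were lower in WT+ZnO NPs than in WT and 11 lower in KO+ZnO NPs than in KO, beside 4.61% of all genes higher in the first comparison and 22.1% and 8.09% lower in the others, with summed levels of 1687 to 1879.6 CPM in WT, 256 to 474 in WT+ZnO NPs, 1501 to 2603 in KO and 682 to 942 in KO+ZnO NPs. In KO against WT, 1 immune marker was higher without KO replicate 2, and 3 were higher and 1 lower without KO+ZnO NPs replicate 3. In KO+ZnO NPs against KO, 4 immune markers were lower without KO replicate 2, beside 1.77% of all genes, and 7 without KO+ZnO NPs replicate 3, beside 5.25%. Of 10 adipocyte markers, 7 were lower in WT+ZnO NPs than in WT, with summed levels of 8041 to 11294 CPM in WT and 1812 to 3492 in WT+ZnO NPs, and 3 were lower without KO replicate 2, beside 19.8% of all genes. No marker of either list was at 0 in all libraries, and the part of tissue composition in the keratin values was not tested.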

How the data were processed

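RNA was measured in 12 skin libraries. The authors deposited raw read counts per gene. The labels name HISAT2 2.0.5, mm10 and a TruSeq kit, whereas the study's methods name STAR, HTSeq and a NEBNext kit; which made the table, the annotation release and strand are not given in the sources used here. Counts of 52636 genes were tested as deposited with edgeR 4.0.16 (R 4.3.3), by the quasi-likelihood test with TMM factors on all 12 libraries, 1 coefficient per group; filterByExpr kept 18822 genes, and calls were made at a Benjamini-Hochberg adjusted p below 0.05. No row lacked a gene. Library totals were 21076320 to 28867802 counts. Replicates of every group differed beyond sampling noise (chi-square per degree of freedom 40.8 to 178) and were kept separate. Ratios were tested by two-sided exact permutation. The test was tried on simulated data with known changes. Members and lists were chosen with earlier results of these data known. Up to 3 called genes of largest change per list, comparison and direction, with a mean of at least 1 CPM, were eligible to be named, besides the 5 genes, Cdc42, Krt5, Krt14 and the 3 genes most alike to each; Krt25, Krt27, Krt71, Krt1, Krt4, Yap1 and Mki67 are shown for correlations, levels or calls outside that rule and were chosen with values known. Of 266 list genes, 264 were matched by symbol; Krt85 and Eppk1 are not analysed here. Alternatives were RLE or no scaling factors, DESeq2 1.42.0, fits to the compared groups, other filters, a replicate block, Y-linked transcripts as a covariate, libraries without Y-linked transcripts, and each library left out. Exonic stretches shared between genes were found by exact match in GENCODE M21. Some genes that the rule would name are not reported here.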

Additional observations from a re-analysis of the deposited data

Results flagged for a closer look

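The response of Krt17 to the particles differed between genotypes by a direct test of that difference: the log2 change in libraries labelled KO minus that in libraries labelled WT was -1.94 ± 0.44 (SE, 3 libraries per group, edgeR adjusted p = 0.0275). Krt17 was higher in 3 of 3 libraries labelled WT+ZnO NPs than in every WT library, while libraries carrying the label KO+ZnO NPs overlapped those of KO. Over 19 alternatives the value ran from -2.26 to -1.56, with a call in 14. The group labelled WT+ZnO NPs also had the lowest mean of Cdc42. Y-linked transcripts were present in all 3 of its libraries and in replicate 1 of KO and of KO+ZnO NPs. With Y-linked transcripts as a covariate the value was -1.56 and not called (edgeR adjusted p = 0.202).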

How the results depend on the processing

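For KO against WT, 2 of the 5 genes were called, and 3 by DESeq2 on all 12 libraries, 5 by DESeq2 on the groups compared, 4 by edgeR on the groups compared, 1 with the replicate block, 1 with Y-linked transcripts as a covariate and 0 among libraries without Y-linked transcripts, with 0 to 3 on leaving out single libraries. The gene called with the block and with the covariate was Krt17. Over 22 alternatives Krt17 was called in 20 and Krt75 in 13. For WT+ZnO NPs against WT, 3 were called, with 4 by DESeq2 on all 12 libraries or the groups compared, by edgeR on the groups compared and with the replicate block, 1 under the Y-linked covariate and 3 to 4 on leaving out single libraries. For KO+ZnO NPs against KO, 0 were called in every setting. For KO+ZnO NPs against WT+ZnO NPs, 0 were called, with 1 on library size only, by DESeq2 on all 12 libraries or on the groups compared, without a filter and with at least 10 counts in every library, and 0 to 2 on leaving out single libraries. For the interaction, 1 was called, with 2 on library size only, by DESeq2, without a filter and with at least 10 counts, 0 with the Y-linked covariate and 0 to 2 on leaving out single libraries. The cause of these shifts was not tested. The share of all genes called moved with the setting as well: for KO against WT it was 8.18%, and 16.4% by DESeq2 on all 12 libraries, 25.6% by DESeq2 and 15.9% by edgeR on the groups compared, 6.58% with the block, 5.08% with the covariate, 3.74% among libraries without Y-linked transcripts and 1.94% to 10.6% on leaving out single libraries. It ran from 20.8% to 51.3% over all settings for WT+ZnO NPs against WT and from 2.34% to 23.3% for KO+ZnO NPs against KO. The range was 0% to 13% for KO+ZnO NPs against WT+ZnO NPs and 0.669% to 17.1% for the interaction. Same-numbered replicates deviated together at more than 0.1 in 2 of 3 pairs at most, so the numbers were not taken as pairs, and not every sample correlated best with its own number.

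With the Y-linked covariate, KO+ZnO NPs against WT+ZnO NPs reversed to 0.13 for Krt17 and 0.72 for Krt75, and the Krt16 interaction to -0.20. Leaving out single libraries, log2 differences that changed sign ran from -0.82 to 0.24 for Krt6a in WT+ZnO NPs against WT, from -0.18 to 0.36 for Krt17 and from -0.15 to 1.95 for Krt75 in KO+ZnO NPs against KO, from -0.41 to 0.13 for Krt17 in KO+ZnO NPs against WT+ZnO NPs and from -0.71 to 1.45 for the Krt16 interaction; none of these was called. The log2 level of the 5 genes over Krt5 alone differed by 0.0054 between WT+ZnO NPs and WT, and over Krt14 alone by 0.83, against 0.46 over both. Among alternative log2 differences, 468 kept direction and side of the threshold, 27 passed it, 18 lost it and 12 changed sign. Counts per list moved by over 1.5 times in 53 of 95 cases under DESeq2 on all libraries and in 2 of 95 under RLE factors. Refits of the list counts without KO replicate 2 or KO+ZnO NPs replicate 3 were chosen after seeing the data; without the former, calls over all genes for KO+ZnO NPs against KO went from 1237 higher and 1522 lower to 110 and 341.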

Other observations

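Counts of called markers of other skin cells follow, to be read beside the shares of all genes called: 8.18% in KO against WT, 43.0% in WT+ZnO NPs against WT and 14.7% in KO+ZnO NPs against KO. Of 8 melanocyte markers, 3 were higher in KO than in WT and 7 higher and 1 lower in WT+ZnO NPs than in WT, with summed levels of 70.3 to 96.1 CPM in WT, 443 to 1268 in WT+ZnO NPs, 152 to 311 in KO and 381 to 526 in KO+ZnO NPs. Leaving out KO replicate 2, 5 melanocyte markers were higher in KO than in WT. Of 9 sebocyte markers, 2 were higher in WT+ZnO NPs than in WT, a share below that of all genes, and 4 were higher in KO+ZnO NPs than in KO. Of 12 skeletal muscle markers, 1 was lower in KO than in WT, a share near that of all genes, and 3 were higher in KO+ZnO NPs than in KO. Between KO+ZnO NPs and KO, edgeR called 0 sebocyte and 0 muscle markers without KO replicate 2, with 6 and 5 below 0.05 unadjusted, and 1 and 0 without KO+ZnO NPs replicate 3, with 5 and 5 below 0.05 unadjusted. Of 10 dermal fibroblast markers, 1 was lower in KO than in WT, and 1 was higher and 5 were lower in WT+ZnO NPs than in WT. The single muscle and fibroblast calls between KO and WT were lost: edgeR called 0 of either list without KO replicate 2, with 1 and 4 below 0.05 unadjusted, and 0 without KO+ZnO NPs replicate 3, with 4 and 5.

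Krt16 counts came to 6.72% to 16.7% of Krt14 counts in WT, 0.878% to 2.55% in WT+ZnO NPs, 12.1% to 26.0% in KO and 0.668% to 10.2% in KO+ZnO NPs.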
